A study of Mus musculus with 2 samples.

Results

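The genes described here are Trp53, which encodes the tumour suppressor p53, and 9 genes of its stress response, namely Mdm2, Mdm4, Ccng1, Sesn1, Sesn2, Zmat3, Phlda3, Perp and Fas. They were taken by name, and each was followed through every non-control array probe whose RefSeq accession maps to its symbol. All 10 were found, with 11 probes, among 20618 named genes with 27115 probes. Mdm4 had 2 probes and each of the others had 1. The RNA came from leukaemic mouse cells of B-cell acute lymphoblastic leukaemia, or B-ALL, sorted from bone marrow by SoNar, a fluorescent protein sensor whose excitation ratio follows the balance of NADH and NAD+ in the cytosol. SoNar-high cells, with a high ratio, were compared with SoNar-low cells, with a low ratio, which asks how expression differs between metabolic states of B-ALL cells. Both groups came from mice of the labelled strain C57BL at 8 weeks of age, and their sample titles read N-myc-high and N-myc-low, which the labels do not explain. The labels used here do not say how the leukaemia was induced, how many animals were sorted or whether they were pooled. Each group had 1 array, so there is no replicate spread and no test, and every difference below describes 2 arrays. The arrays were scanned in separate sessions, and session and group cannot be told apart.

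p53 is a transcription factor that stressed cells stabilise. It switches on genes that halt the cell cycle, repair DNA, adjust metabolism or kill the cell, and it also switches on its own inhibitor Mdm2, which closes a feedback loop. In B cell precursors this pathway guards against breaks made during antigen receptor rearrangement and against excessive MYC activity.

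Of the 10 genes, Sesn2 alone was at least 2-fold higher on the SoNar-high array, with a 3.08-fold difference. Trp53, Mdm2, Mdm4, Ccng1, Sesn1 and Zmat3 were measured on both arrays and differed by less than 2-fold. Phlda3, Perp and Fas were detected, that is well above background, in SoNar-high alone, at signals too dim to give a fold. None of the 10 was at least 2-fold lower. Among the 10517 genes measured on both arrays, the share past 2-fold was 4.87% for higher values in SoNar-high and 1.68% for lower ones, and the 1 of 7 among the members is a single gene. In bulk RNA, fewer cells of a type and less RNA per cell cannot be told apart. By probe, 1 of the 8 member probes measured on both arrays was at least 2-fold higher, beside 7.45% of all such probes.

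Values are the processed signal of a spot, in intensity units, and each is given with the error that the scanner software assigned to that spot, written after ±. This error covers the spot on its own array and leaves out differences between animals, sorts and hybridisations. Differences are SoNar-high minus SoNar-low on the log2 scale after each array was divided by its own 75th percentile, which was 525 for SoNar-high and 475 for SoNar-low. A difference of 1 is a 2-fold change. Over all measured genes the median difference was -0.17, and the middle of the distribution, from its lower to its upper quartile, ran from -0.47 to 0.20. No member spot was saturated or marked as an outlier.

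**Figure D1:**
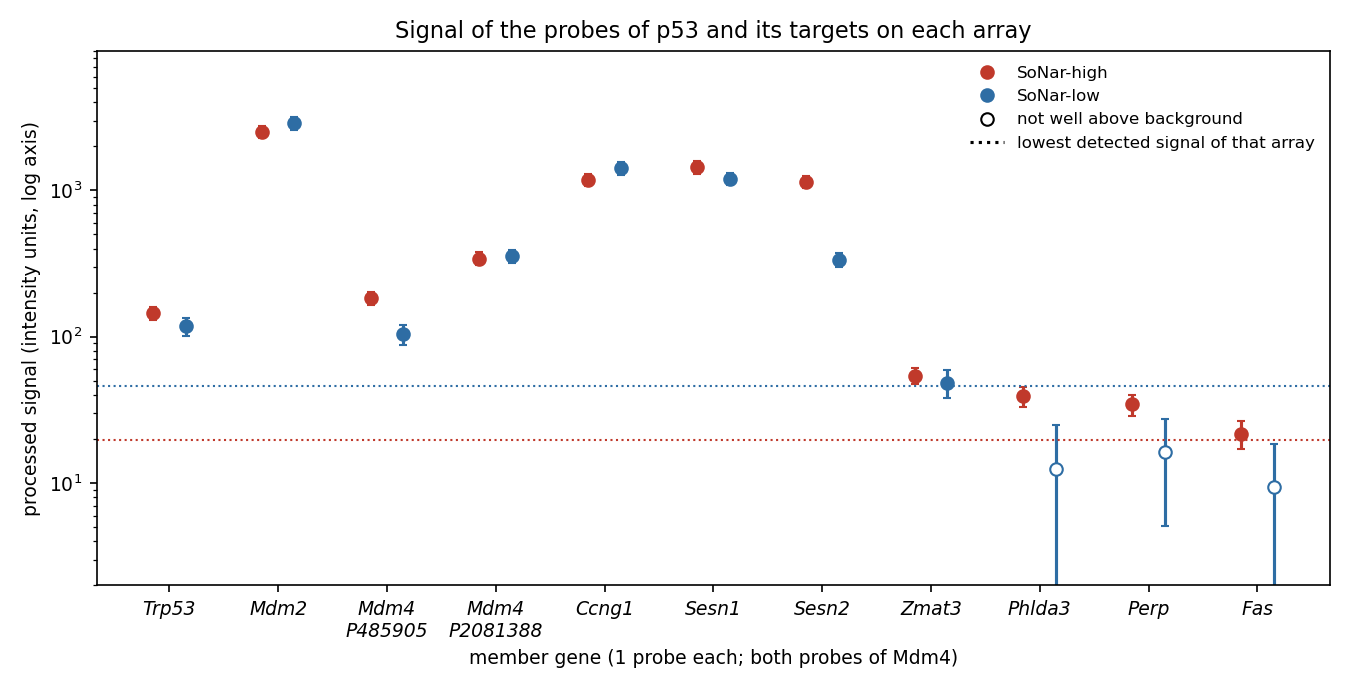
Processed signal (log axis, intensity units) of the 11 probes of the 10 genes, SoNar-high in red on the left and SoNar-low in blue on the right of each pair; bars are the scanner software's error, open points were not well above background, bars of 2 open points run off the bottom of the axis, and dotted lines mark the lowest detected signal of each array. Sesn2 is the one gene detected on both arrays whose points stand far apart (1147 and 336), and Phlda3, Perp and Fas lie between or near the dotted lines.

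Trp53 itself was dim and close to equal. Its probe had a signal of 145 ± 15.2 in SoNar-high and 118 ± 16.6 in SoNar-low. After scaling the log2 difference was 0.16 ± 0.25, smaller than its own error. The array measures the transcript only, whereas p53 is controlled to a large part through the stability of its protein, which these data do not cover.

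Mdm2 and Mdm4 hold p53 in check. Mdm2 is the ubiquitin ligase that marks p53 for degradation and is itself a p53 target, and Mdm4 is a related protein that masks the activation domain of p53. Mdm2 had a signal of 2519 ± 252 in SoNar-high and 2869 ± 287 in SoNar-low, a log2 difference of -0.33 ± 0.20. That is 0.17 below the median of all genes, well inside the middle of the distribution. The first Mdm4 probe (A_52_P485905) had a signal of 184 ± 19.0 in SoNar-high and 104 ± 16.1 in SoNar-low, a difference of 0.68 ± 0.27. The second (A_55_P2081388) had 342 ± 34.5 in SoNar-high and 357 ± 36.9 in SoNar-low, a difference of -0.20 ± 0.21. The probes of Mdm4 thus point in opposite directions, although neither reaches a 2-fold change, and their mean of 0.24 stands for neither. Both are annotated to the same transcript, and the data do not show which follows the gene.

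Ccng1 encodes cyclin G1, a direct p53 target that brings a phosphatase to Mdm2, and Zmat3 encodes a zinc finger protein that binds RNA and influences splicing and transcript stability. Ccng1 had a signal of 1184 ± 119 in SoNar-high and 1421 ± 143 in SoNar-low. Its log2 difference of -0.41 ± 0.20 was the lowest of the 7 measured members, and 29.8% of all measured genes had a lower one. Zmat3 had 54.0 ± 6.82 in SoNar-high and 48.4 ± 10.5 in SoNar-low, a difference of 0.01 ± 0.36. The SoNar-low value is barely above the lowest detected signal of that array, 46.4, so Zmat3 is measured with little precision. Mdm2 and Ccng1, which are both often used as readouts of p53 activity, thus had negative differences, each smaller than a 2-fold change. They lay only 0.17 and 0.24 below the median of all genes. Taken at 2 times its error, each difference reached past 0, to 0.075 for Mdm2 and 0.0015 for Ccng1. The measured members Sesn1, Sesn2 and Zmat3 had positive differences.

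The sestrins are stress proteins that restrain the growth kinase mTORC1 and limit oxidative damage. Sesn1 is known mainly as a p53 target. Sesn2 responds to p53 too, and also to the amino acid and endoplasmic reticulum stress factor ATF4 and the oxidative stress factor NRF2, and it binds leucine. Sesn2 had a signal of 1147 ± 115 in SoNar-high and 336 ± 36.0 in SoNar-low. Its log2 difference was 1.62 ± 0.21, and 136 of the 10517 measured genes, or 1.29%, had a higher one. Among the larger sets that keep dim probes, 865 genes (4.20%) were higher with no filter and 1025 (6.41%) with detection on at least 1 array. Sesn1 had 1441 ± 144 in SoNar-high and 1201 ± 121 in SoNar-low, a difference of 0.12 ± 0.20. The difference of Sesn2 exceeded that of Sesn1 by 1.51 ± 0.29, a gap that shifting a whole array cannot alter. The 3 settings that could move the gap all made it smaller, at 1.38 with quantile normalization, 1.27 in the authors' deposited table and 1.16 with normexp.

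The value of Sesn2 rests on 1 spot of 1 probe. How often both probes of a gene share such a call can be read from the 2021 genes with exactly 2 probes measured on both arrays. In 145 of them at least 1 probe was at least 2-fold higher in SoNar-high, and in 8 of these, or 5.52%, both were. This share counts genes, and counted per called probe it would be higher. The median difference of the other probe was -0.06, beside -0.17 for all measured genes. These genes were picked for 1 high probe. Over all 2021 genes, the median gap between the differences of the 2 probes was 0.43 on the log2 scale.

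**Figure D2:**
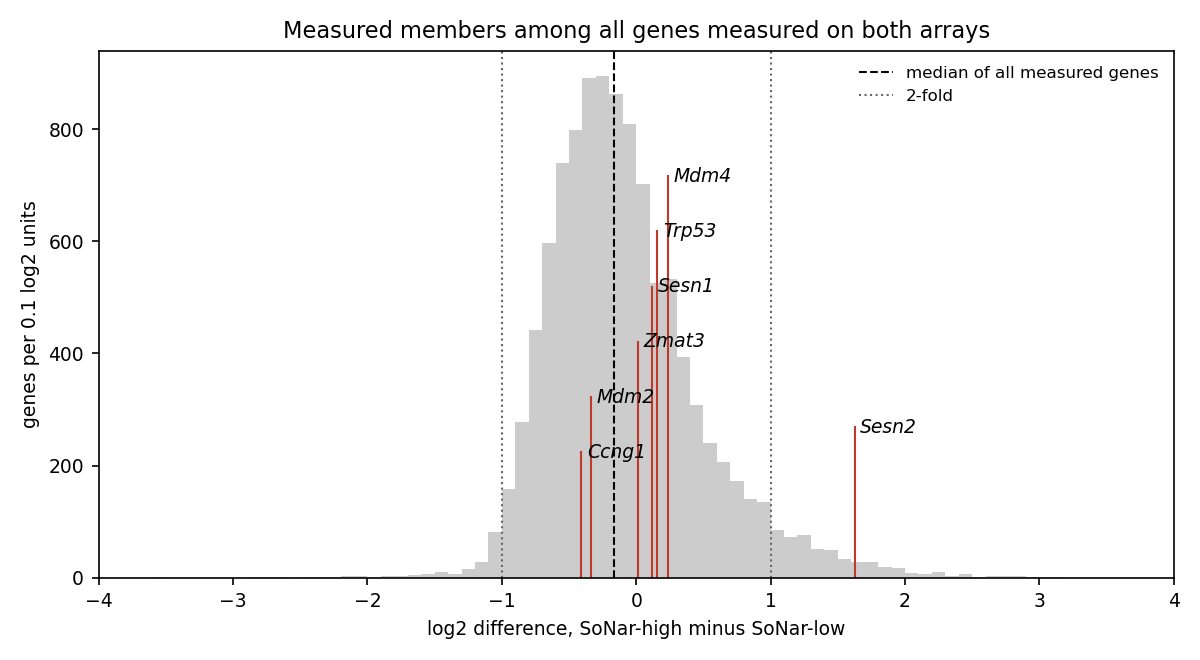
Histogram of the log2 difference, SoNar-high minus SoNar-low, over the 10517 genes measured on both arrays (grey, genes per bin), with the 7 measured members as red lines whose heights carry no value; the dashed line is the median of all genes (-0.17) and dotted lines mark 2-fold. Sesn2 at 1.62 lies in the upper tail, and the other 6 members lie between -0.41 and 0.24.

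Because the 2 sestrins differ, the sequence around their annotated starts is shown, with that of Trp53 for the factor itself. Each is 300 bases, 250 before and 50 after an annotated start, on the strand of the gene, from RefSeq in the build GRCm38.p6. Sesn1 has 2 annotated starts, and its probe was not assigned to either here. Capitals mark matches, searched on both strands, to the consensus p53 half-site (the decamer that occurs in pairs in p53 response elements), to TGACNNNGC (the core of the antioxidant response element that NRF2 binds), to TGATGNAA (a core of the element that ATF4 binds) and to CACGTG (the E-box of MYC proteins and their relatives).
Sesn2 (chr4:132510407-132510706, minus strand): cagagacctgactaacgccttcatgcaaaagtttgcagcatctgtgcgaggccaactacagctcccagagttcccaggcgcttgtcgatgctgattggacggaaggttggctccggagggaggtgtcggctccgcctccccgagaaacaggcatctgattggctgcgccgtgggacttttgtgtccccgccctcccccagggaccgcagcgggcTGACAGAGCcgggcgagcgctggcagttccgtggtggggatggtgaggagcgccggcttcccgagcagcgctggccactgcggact
Sesn1, start farther upstream (chr10:41810324-41810623, plus strand): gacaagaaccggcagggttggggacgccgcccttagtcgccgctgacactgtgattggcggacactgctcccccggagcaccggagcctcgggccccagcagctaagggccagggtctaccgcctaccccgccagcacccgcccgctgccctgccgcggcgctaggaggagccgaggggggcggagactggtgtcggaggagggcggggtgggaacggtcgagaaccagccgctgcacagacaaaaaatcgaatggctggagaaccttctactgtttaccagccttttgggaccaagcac
Sesn1, start farther downstream (chr10:41887189-41887488, plus strand): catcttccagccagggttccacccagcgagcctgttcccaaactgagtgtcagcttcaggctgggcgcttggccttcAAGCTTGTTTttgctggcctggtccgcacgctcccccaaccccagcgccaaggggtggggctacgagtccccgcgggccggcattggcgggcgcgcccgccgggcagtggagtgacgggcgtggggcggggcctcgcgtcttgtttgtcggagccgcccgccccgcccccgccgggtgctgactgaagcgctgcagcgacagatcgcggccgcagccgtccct
Trp53 (chr11:69580109-69580408, plus strand): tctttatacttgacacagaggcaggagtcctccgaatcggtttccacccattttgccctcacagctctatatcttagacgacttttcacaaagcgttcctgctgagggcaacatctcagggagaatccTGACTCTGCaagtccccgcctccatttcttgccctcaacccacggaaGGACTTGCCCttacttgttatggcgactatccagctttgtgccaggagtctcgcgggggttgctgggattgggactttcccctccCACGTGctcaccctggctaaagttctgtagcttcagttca

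In the Sesn2 window the one capital stretch is TGACAGAGC, a match to TGACNNNGC that begins 36 bases before the start, and the window holds no p53 half-site and no CACGTG. Of the Sesn1 windows, the downstream one holds the half-site AAGCTTGTTT, 173 bases before its start, and the upstream one holds none of the 4 motifs. The Trp53 window holds the half-site GGACTTGCCC at 75 bases before the start, TGACTCTGC at 122 bases before it and a CACGTG that begins at base 11 of the transcript. None of the matches in these windows overlap.

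Across members, 8 genes had 10 windows in the table. A p53 half-site was found in 4 of the 10, those of Trp53, Mdm2 (GAACTTGCCT, 186 bases before the start), Ccng1 (GGGCAAGCCT, 185 bases before it) and the downstream Sesn1 start. Of 32807 windows of the same length over all genes, 8.36% held one. TGACNNNGC stood in 2 of the 10 member windows, against 12.4% of all windows, CACGTG in 2 (Trp53 and Fas) against 7.15%, and TGATGNAA in 0 against 3.97%. A match to these letters is a description of the sequence, and known response elements of p53 targets often lie outside such windows, for example in a first intron of Mdm2.

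Phlda3, Perp and Fas belong to the arm of the pathway that acts on survival. Phlda3 is a small protein that blocks membrane recruitment of the survival kinase Akt, Perp is a membrane protein linked to apoptosis and to cell junctions, and Fas is the death receptor that triggers caspases when its ligand binds. Phlda3 had a signal of 39.4 ± 6.16 in SoNar-high and 12.5 ± 12.5 in SoNar-low. Perp had 34.4 ± 5.54 in SoNar-high and 16.2 ± 11.1 in SoNar-low. Fas had 21.8 ± 4.69 in SoNar-high and 9.33 ± 9.30 in SoNar-low. All 3 were well above background in SoNar-high and not in SoNar-low, where the error of the dimmest is as large as the signal.

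This detection on one side gives no fold for any of the 3. Probes were called down to a signal of 19.7 in SoNar-high and of 46.4 in SoNar-low, so a transcript could be called on the first at a signal that the second could not call. These lowest signals are not sharp limits, since a probe of Plk3, another p53 target, had 52.8 in SoNar-low and was not called there. On the scaled log2 level, Phlda3 stood at -3.74, Perp at -3.93 and Fas at -4.59 in SoNar-high, all under the lowest detected level of SoNar-low, -3.36. Detection on the SoNar-high array alone was also common, at 26.5% of all named genes, while 51% were detected on both arrays. For the members the counts were 3 of 10 and 7 of 10. When dim probes were kept, 3 of the 10 members passed 2-fold (Sesn2, Phlda3 at 1.51 and Fas at 1.08), beside 13.5% of all genes with no filter and 20% of genes detected on at least 1 array.

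Other genes of the pathway were taken from lists that do not include the 10. The first list holds 48 further p53 targets, of which 47 were on the array and 35 were measured on both arrays. Past 2-fold were 2 of these 35 on the higher and 1 on the lower side, beside the 4.87% and 1.68% of all genes, and their median was -0.18, beside -0.17 for all genes. Gtse1, a protein of dividing cells that binds p53 and carries it out of the nucleus, was the highest. It had a signal of 1288 ± 129 in SoNar-high and 397 ± 40.8 in SoNar-low, a log2 difference of 1.55 ± 0.21. Gadd45a, a stress sensor that arrests the cell cycle and aids DNA repair, had 512 ± 51.4 in SoNar-high and 206 ± 23.8 in SoNar-low, a difference of 1.17 ± 0.22. Ptp4a3, a phosphatase, followed at 0.98. At the other end Plk2, a kinase induced by stress, had 47.1 ± 6.58 in SoNar-high and 94.3 ± 15.3 in SoNar-low, a difference of -1.15 ± 0.31. Sesn3, the third sestrin, which is best known as a target of FOXO factors, was at -0.79. The 3 sestrins thus spread from -0.79 to 1.62.

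Trp53inp1, which promotes autophagy and death downstream of p53, was at -0.78 through 1 of its 2 probes. Its other probe was well above background in SoNar-high alone, with 114 ± 12.3 there and 44.5 ± 13.0 in SoNar-low, the opposite direction. A further 9 of the 47 targets were detected in SoNar-high alone, beside 26.5% of all named genes. None of the 9 had a bound that reached 2-fold when averaged over its detected probes, beside 1.51% of all named genes. The bound of Rrm2b averages 2 unlike probes. The brighter had 118 ± 12.6 in SoNar-high and 18.8 ± 10.5 in SoNar-low, and the dimmer had 20.9 ± 4.52 and 9.39 ± 9.38. In SoNar-high the brighter alone, at a scaled level of -2.15, stood more than 2-fold above the lowest detected level of SoNar-low, -3.36. Cdkn1a, the cell cycle inhibitor p21 and the best known p53 target, is another of the 9. Both genes were singled out after their values were seen. The detected Cdkn1a probe had 30.3 ± 5.01 in SoNar-high and 18.2 ± 9.53 in SoNar-low, and the other Cdkn1a probe was not well above background on either array. The main arrest target of p53 was therefore dim in SoNar-high and not detected in SoNar-low. Its SoNar-high level of -4.12 is under the lowest level that SoNar-low detected, so this detection on one side gives no fold.

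The second list holds 39 regulators and relatives of p53, of which 38 were on the array and 37 were measured. Past 2-fold were 2 of the 37 on the higher and 1 on the lower side, beside the 4.87% and 1.68% of all genes, and the median was -0.17. The 2 higher ones were the other members of the p53 family, Trp63 and Trp73, transcription factors best known from epithelial and neural development. For Trp63 the measured probe (A_55_P2161055) had 1700 ± 170 in SoNar-high and 272 ± 29.8 in SoNar-low, a difference of 2.50 ± 0.21. The other Trp63 probe was not well above background on either array, with 4.58 ± 4.57 in SoNar-high and 12.4 ± 12.3 in SoNar-low. For Trp73 the measured probe had 307 ± 31.1 in SoNar-high and 79.9 ± 14.0 in SoNar-low, a difference of 1.80 ± 0.29. Of the other Trp73 probes, 1 was detected in SoNar-high alone, at 35.7 ± 5.94 there and 18.2 ± 11.2 in SoNar-low, and 1 on neither array. Both relatives are therefore higher by 1 probe each, with their remaining probes at or near background.

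Trim28, a corepressor that works with Mdm2, was next at 0.84. The lowest regulators were Topors, a ubiquitin and SUMO ligase of p53, at -1.05 ± 0.20, with 1356 ± 136 in SoNar-high and 2544 ± 255 in SoNar-low, then Huwe1, a large ubiquitin ligase, at -0.87 and Setd7, a lysine methyltransferase, at -0.82. These values too come from 1 probe each.

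**Figure D3:**
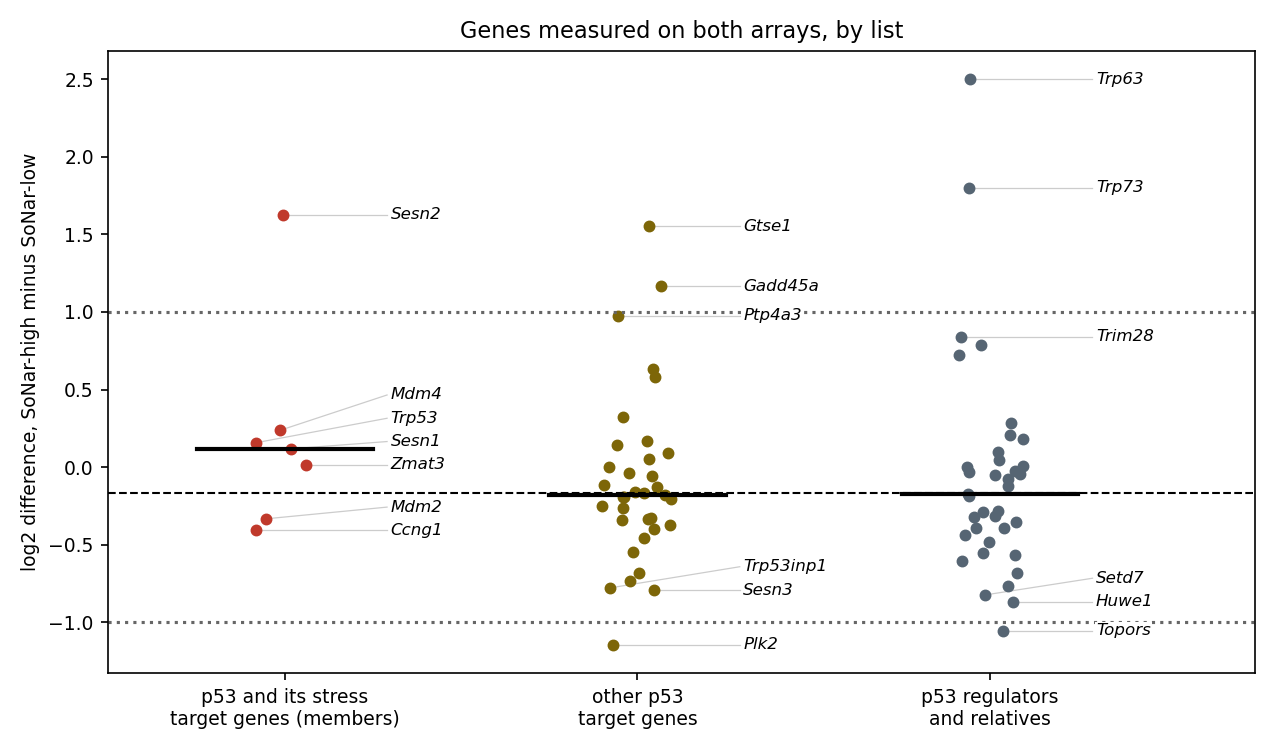
Log2 difference (SoNar-high over SoNar-low) of each gene measured on both arrays, for the 7 members, 35 other p53 targets and 37 regulators and relatives (1 point per gene, sideways spread without meaning); short bars are list medians (0.12, -0.18 and -0.17), the dashed line is the median of all genes and dotted lines mark 2-fold. Most points of each list lie inside the dotted lines, and the labelled genes outside them are Sesn2, Gtse1, Gadd45a, Trp63, Trp73, Plk2 and Topors.

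The 7 measured members had a median of 0.12, with 5 of 7 above the median of all genes. Without Sesn2 the median was 0.07. This median is described only, since 3 dim members are missing from it and its sign depends on the scaling. Of the 10 other settings, 5 (the filters on dim probes, the brightest probe and the keeping of marked spots) cannot change a gene with 1 unmarked, detected probe, so 5 bear on these genes and 6 on Mdm4. Sesn2 was at least 2-fold higher in all 5, between 1.01 with median scaling and 1.84 where the percentile was taken over the spots that both arrays detected. Mdm2 and Ccng1 were below 0 in all 5. Ccng1 reached -1.02 with median scaling, which lowers every gene by 0.61. Trp53 and Zmat3, which are positive as reported, were each negative in 4 of the 5, Sesn1 was positive in 4 of 5 and Mdm4 in 4 of 6. These signs are against 0, and the median of all genes moves with the setting too. Mdm2 was above that median in 2 of the 10 settings and Ccng1 in 0. Trp53 and Sesn1 were above it in 9 each, Zmat3 in 7, and Mdm4 and Sesn2 in 10. In the authors' deposited table, the difference between the columns was 1.51 for Sesn2, -0.23 for Trp53, -0.14 for Mdm2 and -0.70 for Zmat3.

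**Figure D4:**
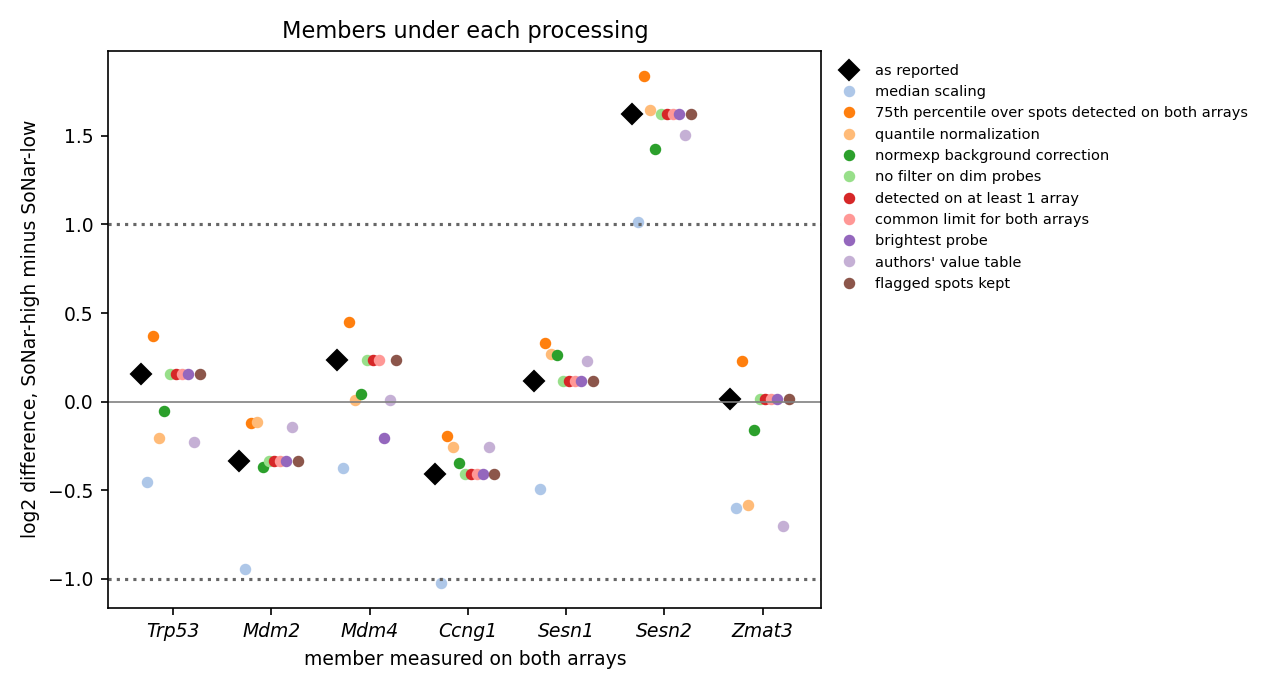
Log2 difference (SoNar-high over SoNar-low) of the 7 members measured on both arrays, as reported (black diamonds) and under 10 other ways of processing (coloured points); dotted lines mark 2-fold. Points level with the diamond are largely settings that cannot change a gene with 1 probe; Sesn2 lies above the upper dotted line in the settings shown, Mdm2 and Ccng1 lie below 0, and Trp53, Mdm4, Sesn1 and Zmat3 cross 0.

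The labelled cell type was checked against 16 B lineage genes. Of these 14 were measured on both arrays, with a median difference of -0.31, and neither array detected Rag1 or Igll1. The signal summed over the probes of all 16 was 62403 in SoNar-high and 67969 in SoNar-low. This sum and those below are unscaled and include undetected probes. Marker lists of other cells had medians above that of all genes. The 11 measured of 13 neutrophil genes had a median of 0.48, and 9 of them were above 0. The summed signal over that list was 26769 in SoNar-high and 19493 in SoNar-low. Of the genes on the array, 4 of 9 erythroid, 4 of 8 T cell, 3 of 6 natural killer, 2 of 6 monocyte and 5 of 7 stromal genes were measured. Their medians were 1.07, 0.94, 1.12, 0.81 and 0.69 in that order. Among the T cell genes 3 were above 0, and Lck was at -0.94 (858 in SoNar-high and 1490 in SoNar-low). Some of these genes were dim in SoNar-low, with Gzma at 62.3 and Adgre1 at 46.4, the lowest detected signal of that array. Summed over the list, the erythroid signal ran the other way (16120 in SoNar-high and 23565 in SoNar-low). So did the stromal signal (9326 in SoNar-high and 13321 in SoNar-low). Most of each sum came from 1 gene, Hemgn (14153 in SoNar-high and 22791 in SoNar-low) and Alpl (7773 in SoNar-high and 12517 in SoNar-low). Each other measured gene of these 2 lists was higher in SoNar-high. The part of these other cells in the difference of Sesn2 was not tested.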

How the data were processed

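Total RNA of 2 sorted samples was measured on 1 Cy3 Agilent array each. Spot intensity values were deposited as background-subtracted, detrended processed signals, per the file headers, which name Feature Extraction 11.0.1.1 (9.1 per the submitters' processing notes). The authors' deposited table gives log2 values with equal quantiles in both columns (median 5.90), and the steps behind it are not given in the sources used. Its columns correlated with log2 of the processed signal at r = 0.995 for SoNar-high and 0.994 for SoNar-low.

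Log2 signals were scaled to the 75th percentile of 43020 non-control spots, and 685 outlier spots were removed. Probes were named by unversioned RefSeq accession. A gene was the mean of its probes well above background on both arrays. A gene detected on 1 array had only a bound, set against the lowest detected level elsewhere or its own dim level, whichever was higher. The lowest detected level is not a sharp limit, so a bound set against it is the most favourable case. Spot errors were combined as relative errors of both arrays. Repeat spots of 193 detected probes differed with a median SD of 0.15 on the log2 scale. The 10 genes, lists and settings were chosen with earlier results of these data known. Of the other lists, the 3 highest, the 3 lowest and genes past 2-fold were to be named. No likeness between genes was ranked on 2 arrays. The calling step was tested on simulated data. Coordinates are those of GRCm38.p6, while the array design is annotated on mm9. The settings compared were 10. Python 3.11.15, numpy 2.4.6, pandas 2.3.3, R 4.3.3 and limma 3.58.1 (normexp, offset 50) were used.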

Additional observations from a re-analysis of the deposited data

How the results depend on the processing

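No paired analysis was possible because SoNar-high and SoNar-low have a single array each, and no array could be left out. The count of members at least 2-fold higher, 1 as reported, was 3 with no filter on dim probes and 3 with detection on at least 1 array, where Phlda3 and Fas join at 1.51 and 1.08 on dim signals, beside 13.5% and 20% of all genes. It was 1 with each probe counted on its own, a setting added after seeing the data, as was leaving out Sesn2. The count of lower members, 0, was 1 with median scaling (Ccng1). The median of the measured members, 0.12, was -0.50 with median scaling, 0.33 with the percentile over commonly detected spots, -0.12 with quantile normalization, -0.051 with normexp and -0.14 in the authors' table. For the other p53 targets it was -0.79 with median scaling and 0.036 with that percentile, and for the regulators -0.79 and 0.038. Genes at least 2-fold higher, 512 as reported, numbered 139 with median scaling, 806 with that percentile, 262 with normexp, 2775 with no filter and 3203 with detection on at least 1 array. Lower genes, 177, numbered 3306, 67, 60 and 1751 under the first 4 of these, 350 with quantile normalization, 114 with 1 common limit and 430 in the authors' table. The scalings shift all genes alike and the filters admit other probes by construction. The cause was not tested for the authors' table, quantile normalization or normexp. Demanding a signal over 2 times the lowest detected one left 7 of 10 members in SoNar-high and 6 of 7 in SoNar-low. Signal over background limits Zmat3, Phlda3, Perp and Fas most.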
